A study of Homo sapiens with 4 samples.

Results

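Elastic fibre and microfibril genes were examined in Daoy cells, an established human medulloblastoma line, as the 10 genes FBN1, FBN2, MFAP2, MFAP5, EMILIN1, FBLN1, FBLN5, EFEMP1, EFEMP2 and ELN. They were taken by symbol from 23228 gene rows, and all 10 had a row. The cells stably expressed an shRNA against PELP1 (2 libraries) or a control shRNA (2 libraries), both brought in by lentivirus, and were grown in DMEM with 10% fetal bovine serum. PELP1 is a scaffold protein and coregulator of nuclear receptors, and the title of the series asks about the NF-κB pathway in medulloblastoma. The labels do not give the PELP1 shRNA sequence, and give no sign that the replicates were grown separately. Every p-value therefore reflects the spread of 4 libraries, and that spread may be technical.

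Elastic fibres have a core of cross-linked elastin laid down on a scaffold of microfibrils, which are built from fibrillins. Small glycoproteins bind the fibrillins, fibulins and emilins sit where elastin meets the microfibril, and lysyl oxidases cross-link the tropoelastin monomers. Microfibrils also hold latent TGF-β and bone morphogenetic proteins in the matrix. In brain, elastic fibres are known mainly from the walls of arteries.

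With the PELP1 shRNA, 7 of the 10 genes fell and 0 rose in the edgeR quasi-likelihood test over all genes (Benjamini-Hochberg false discovery rate, FDR, below 0.05). All 10 passed the filter on low counts. MFAP5 passed it through its control shRNA libraries alone (23 and 31 counts, against 3 and 4 with the PELP1 shRNA). Passing in this way favours a lower call, so the calls of MFAP5 here and below carry that limit. Of 14972 genes tested, 29.5% were called lower, 28.6% higher and 58.1% in either direction, so a call by itself was common. Scaled by library size alone, 3305 genes were called lower and 5679 higher in place of 4424 and 4276. The median log2 fold change (PELP1 shRNA over control shRNA) of the 10 genes was −0.42, against 0.00 over all genes tested. The scaling places the latter near 0, and with library size alone it was 0.0922. No further member was higher at an unadjusted p under 0.05 (0 higher, 7 lower), and DESeq2 called 0 higher and 6 lower. The fibrillin genes FBN1 and FBN2, the microfibril-associated glycoprotein genes MFAP2 and MFAP5, EMILIN1 and the fibulin genes FBLN5 and EFEMP2 made up the 7. EFEMP1, FBLN1 and the elastin gene ELN did not pass. The size of the change separated 2 members from the others. EMILIN1 and MFAP5 passed a test against a 1.5-fold change, which 4.90% of all genes passed in the lower direction and 9.63% in either direction. They were also the only members called when a biological variation of 20% was assumed in place of the estimate from the libraries.

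**Figure D1:**
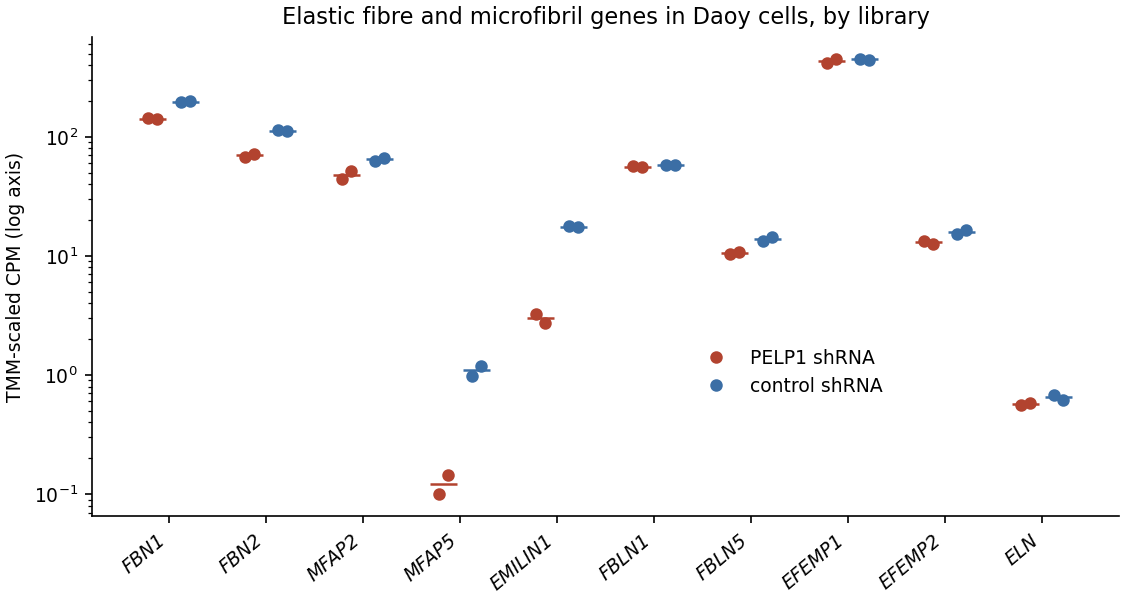
TMM-scaled CPM (reads per gene scaled to a common library total) of the 10 genes in each library, on a log axis. Points are libraries and short lines are the mean of 2. EMILIN1 stood at 3.25 and 2.76 CPM with the PELP1 shRNA, against 17.7 and 17.4 CPM with the control shRNA, and EFEMP1 points of the groups overlap.

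The fibrillins, the long glycoproteins whose polymers form the backbone of microfibrils, fell together, by 1.39-fold and 1.61-fold. FBN1, the gene mutated in Marfan syndrome, had 143 and 141 CPM, its reads scaled to a common library total, in the PELP1 shRNA libraries, against 197 and 199 CPM in the control shRNA libraries. Both libraries with the PELP1 shRNA lay below both controls. The level was 71.7% of control, a log2 fold change of −0.48 ± 0.04 (SE, edgeR FDR = 3.51e-16). FBN2, a fibrillin used mostly in developing tissue, had 68.1 and 71.7 CPM with the PELP1 shRNA, against 114 and 111 CPM with the control shRNA. The groups did not overlap here either, and FBN2 stood at 62.2% of control (log2 fold change −0.69 ± 0.05, SE, edgeR FDR = 1.6e-19). Neither fibrillin passed the test against a 1.5-fold change, where FBN2 had an edgeR glmTreat FDR of 0.0551 and FBN1 an FDR of 1. Of all genes tested, 7.29% had a lower log2 fold change than FBN2 and 12.7% a lower one than FBN1. Per kb of exon, FBN2 transcripts amounted to 0.496 and 0.528 of FBN1 transcripts in the PELP1 shRNA libraries and 0.601 and 0.578 in the control shRNA libraries. The ratio was lower in both PELP1 shRNA libraries. The remaining fibrillin gene, FBN3, had 2 and 3 counts with the PELP1 shRNA and 0 and 1 with the control shRNA, and was not tested.

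In hg19, FBN1 spans 48700510 to 48937918 on chromosome 15 and FBN2 spans 127593601 to 127994878 on chromosome 5, both on the minus strand. MFAP2, which encodes a small glycoprotein bound to fibrillin, spans 17300997 to 17307127 on chromosome 1, also on the minus strand. The windows around the RefSeq starts of these 3 genes are shown because their transcripts, the core of the microfibril, all fell, to between 62.2% and 74.2% of control. They are RefSeq promoter windows of the assembly GRCh38.p14, 250 bases before to 50 after a start site, and each matched hg19 exactly at 1 place. They are written 5′ to 3′ on the strand of the gene, with matches to the GC box (GGGCGG), AP-1 (TGANTCA) and TEAD (GGAATG) motifs on either strand in capitals. MFAP2 had 2 windows, and the upstream one lies outside the GENCODE span of the gene given above, so that start comes from RefSeq alone.
FBN1 (chr15:48937118-48937417, minus strand): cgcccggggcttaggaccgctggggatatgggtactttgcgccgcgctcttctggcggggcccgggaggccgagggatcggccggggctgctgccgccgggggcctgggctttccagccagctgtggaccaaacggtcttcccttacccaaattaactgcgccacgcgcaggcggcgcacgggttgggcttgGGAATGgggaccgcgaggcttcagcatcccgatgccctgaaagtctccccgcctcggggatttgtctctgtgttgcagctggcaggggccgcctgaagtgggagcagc
FBN2 (chr5:127873889-127874188, minus strand): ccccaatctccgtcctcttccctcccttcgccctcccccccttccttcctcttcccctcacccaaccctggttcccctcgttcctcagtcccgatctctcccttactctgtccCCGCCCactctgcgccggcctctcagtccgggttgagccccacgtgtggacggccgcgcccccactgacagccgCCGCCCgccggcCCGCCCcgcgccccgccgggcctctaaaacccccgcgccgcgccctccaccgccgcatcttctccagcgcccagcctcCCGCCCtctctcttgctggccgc
MFAP2 downstream start (chr1:17307066-17307365, minus strand): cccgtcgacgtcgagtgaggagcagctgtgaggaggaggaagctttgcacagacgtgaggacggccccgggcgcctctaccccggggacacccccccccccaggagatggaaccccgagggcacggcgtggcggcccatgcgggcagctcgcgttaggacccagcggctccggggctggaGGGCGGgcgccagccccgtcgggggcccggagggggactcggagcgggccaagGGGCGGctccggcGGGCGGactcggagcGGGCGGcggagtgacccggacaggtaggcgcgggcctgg
MFAP2 upstream start (chr1:17308029-17308328, minus strand): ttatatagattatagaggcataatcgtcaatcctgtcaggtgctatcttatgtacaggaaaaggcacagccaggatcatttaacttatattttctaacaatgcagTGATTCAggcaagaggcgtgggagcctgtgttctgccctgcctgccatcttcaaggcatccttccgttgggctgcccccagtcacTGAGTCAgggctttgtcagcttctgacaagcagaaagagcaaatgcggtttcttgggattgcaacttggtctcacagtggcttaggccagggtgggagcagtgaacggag

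The 3 genes did not share 1 motif layout. FBN2 and the downstream MFAP2 window each held 4 GC box matches, FBN1 and the upstream MFAP2 window held 0, and 45.0% of all 35116 windows held at least 1. The upstream MFAP2 window held 2 AP-1 matches, at −145 and −60 from the start, a motif present in 7.71% of all windows. The single TEAD match, at −58, was in FBN1 (14% of all windows). E-box letters (CANNTG) were found in these 4 windows and in 68.7% of all windows, and the SMAD letters CAGACA, held by 16.9% of all windows, in 0 of the members' windows. The NF-κB motif, searched by its usual consensus and present in 11.3% of all windows, matched once in the downstream MFAP2 window and once in that of FBLN1, a gene whose level did not pass the test. These matches are letters in a window, not binding sites. In all, 6 of the 10 members had a window (FBN1, FBN2, MFAP2, FBLN1, FBLN5 and EFEMP2), 8 windows together, with a GC content of 47.3% to 80.7% against a median of 58.7% over all windows. EFEMP2, which fell least among the called genes, held 6 GC box matches.

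**Figure D2:**
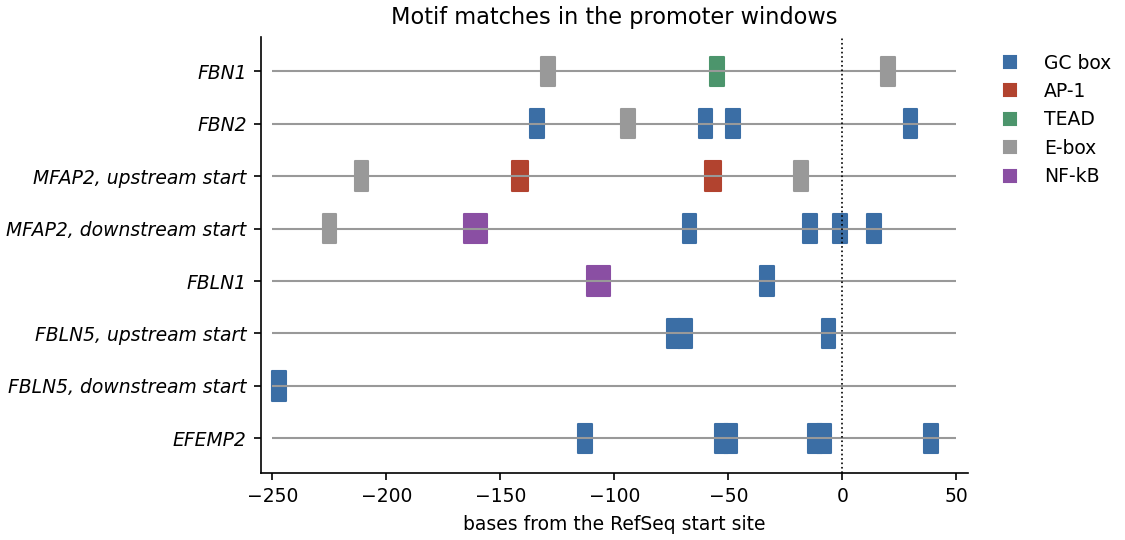
Positions of motif matches in the 8 RefSeq promoter windows of the members, in bases from the annotated start (dotted line at 0); each coloured block is a match. GC boxes fill the FBN2, downstream MFAP2 and EFEMP2 windows, while FBN1 and the upstream MFAP2 window hold none.

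The 2 microfibril-associated glycoproteins differed in level and in the size of the change. MFAP2 had 44.7 and 51.4 CPM with the PELP1 shRNA, against 63.1 and 66.5 CPM with the control shRNA. The groups did not overlap, and the level was 74.2% of control (log2 fold change −0.43 ± 0.06, SE, edgeR FDR = 4.86e-09). MFAP2 transcripts kept pace with those of FBN1, with a per-kb ratio of 2.14 and 2.49 in the PELP1 shRNA libraries and 2.19 and 2.28 in the control shRNA libraries, ranges that overlap. MFAP5, whose protein binds both fibrillin and growth factors, was close to the detection limit. It had 3 and 4 counts in the PELP1 shRNA libraries and 23 and 31 counts in the control shRNA libraries, or 0.0994 and 0.145 CPM against 0.984 and 1.2 CPM. After scaling, the summed counts were 9.09-fold lower with the PELP1 shRNA (95% counting interval 4.12 to 23.6; edgeR FDR = 1.34e-07). This interval covers only the error of counting and not the spread between libraries. It may be too narrow even for that error, because the reads carry no molecular identifiers and need not be independent molecules. MFAP5 spans 8789942 to 8815484 on chromosome 12 (hg19, minus strand) and shares 65 exonic bases with a pseudogene on the other strand. MFAP2 shares 368 exonic bases with an antisense long non-coding RNA. FBN2 shares 56 exonic bases with SLC27A6, and EFEMP2 shares 11 with MUS81, both protein-coding genes on the other strand. The strand setting of the counting is not given in the sources used here, so reads of overlapping partners cannot be told apart.

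EMILIN1 encodes a glycoprotein of the elastin-microfibril interface that also restrains the processing of the TGF-β precursor. It had 98 and 76 counts with the PELP1 shRNA, against 415 and 448 counts with the control shRNA. This corresponds to 3.25 and 2.76 CPM in PELP1 shRNA libraries and 17.7 and 17.4 CPM in control shRNA libraries, so the lowest control was far above both knockdown libraries. The mean was 3.0 ± 0.347 CPM (SD, n = 2) with the PELP1 shRNA and 17.6 ± 0.244 CPM (SD, n = 2) with the control shRNA. EMILIN1 thus stood at 17.1% of control, with a log2 fold change of −2.54 ± 0.12 (SE, edgeR FDR = 1.89e-27; glmTreat FDR for a 1.5-fold change = 2.56e-22). Of all genes tested, 0.574% had a lower log2 fold change. The gene lies on the plus strand of chromosome 2 (hg19, 27301483 to 27309271), with no exonic overlap with another gene in the annotation used. The related gene EMILIN2 stood at 0.843 CPM with the PELP1 shRNA and 1.83 CPM with the control shRNA (log2 fold change −1.11 ± 0.28, SE, edgeR FDR = 0.000624), and EMILIN3 had too few counts to be tested. The per-kb ratio of EMILIN1 to FBN1 was 0.108 and 0.0926 in the PELP1 shRNA libraries and 0.428 and 0.414 in the control shRNA libraries.

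**Figure D3:**
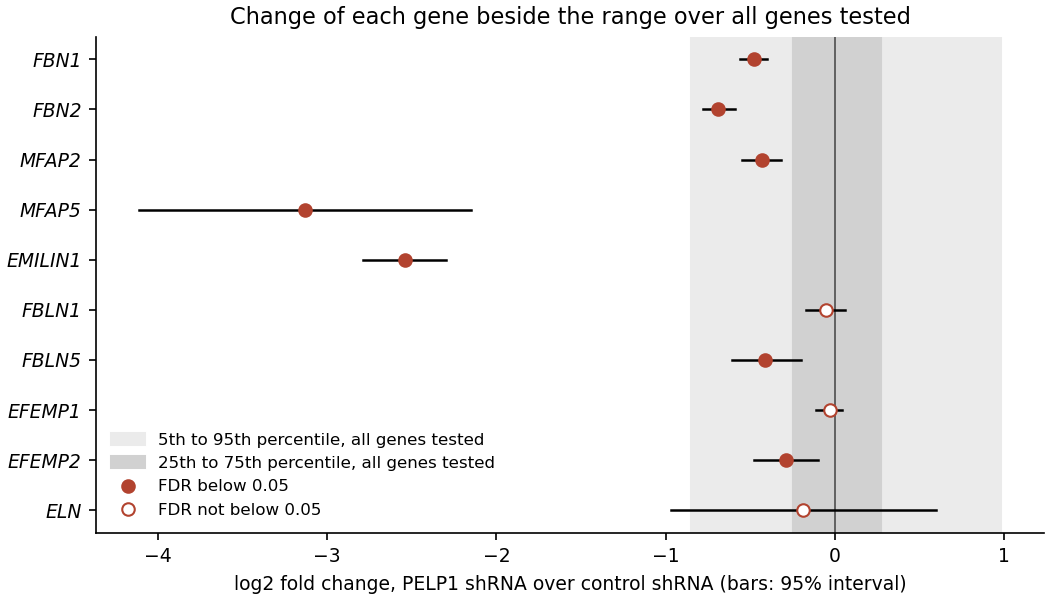
Log2 fold change of each gene, PELP1 shRNA over control shRNA, with its 95% interval; filled points passed FDR 0.05, and grey bands give the range over all 14972 genes tested. MFAP5 and EMILIN1 lie left of the 5th percentile of all genes (−0.85), and the other members lie inside the wide band.

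Of the 4 fibulin genes among the 10, FBLN5 and EFEMP2 were called lower and FBLN1 and EFEMP1 were not called, and none passed the test against a 1.5-fold change. FBLN5 encodes fibulin-5, which tethers tropoelastin to microfibrils and to integrins. It had 10.3 and 10.7 CPM with the PELP1 shRNA, against 13.4 and 14.5 CPM with the control shRNA, with no overlap (log2 fold change −0.41 ± 0.10, SE, edgeR FDR = 0.000434). EFEMP2 encodes fibulin-4, which brings lysyl oxidase to tropoelastin. It had 13.4 and 12.6 CPM with the PELP1 shRNA, against 15.2 and 16.6 CPM with the control shRNA (log2 fold change −0.29 ± 0.09, SE, edgeR FDR = 0.00643). The groups did not overlap, but the call was lost in 6 of 13 alternatives. Leaving out PELP1 shRNA replicate 2 gave an adjusted p of 0.058, and leaving out control shRNA replicate 2 gave 0.107. DESeq2 gave an adjusted p of 0.0971, and scaling by library size alone 0.058.

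FBLN1 and EFEMP1, the more abundant fibulins, did not pass. FBLN1 encodes fibulin-1, which binds elastin and fibronectin. It had 56.6 and 55.5 CPM with the PELP1 shRNA, against 58.6 and 57.8 CPM with the control shRNA (log2 fold change −0.05, 95% interval −0.17 to 0.06, edgeR FDR = 0.41). Counts per gene do not separate its splice forms. EFEMP1, on chromosome 2 (hg19, 56093102 to 56151274), encodes fibulin-3, a secreted glycoprotein that also binds the protease inhibitor TIMP-3. Its values were 419 and 455 CPM with the PELP1 shRNA and 454 and 441 CPM with the control shRNA, ranges that overlap. The log2 fold change was −0.03, with a 95% interval of −0.11 to 0.04 (edgeR FDR = 0.457). For both genes the interval excludes a change of the size seen in FBN1, but only at the variation estimated from these 4 libraries, which may be technical. At an assumed biological variation of 20%, FBN1 itself was not called. The sign of both changes was positive with library size alone (0.035 for FBLN1 and 0.057 for EFEMP1, neither past the threshold).

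ELN encodes tropoelastin, the monomer of the elastin core, and was hardly detected. It had 17 and 16 counts with the PELP1 shRNA and 16 and 16 counts with the control shRNA, or 0.563 and 0.58 CPM against 0.684 and 0.622 CPM. The log2 fold change was −0.19 with a 95% interval of −0.97 to 0.60 (edgeR FDR = 0.703), so a change as large as that of either fibrillin was not detectable at this depth. The gene lies on the plus strand of chromosome 7 (hg19, 73442119 to 73484237) and shares 165 exonic bases with an antisense RNA gene. Of all genes tested, 5.04% had a lower mean level than ELN and 4.98% a lower one than MFAP5. Counted by separation alone, both PELP1 shRNA libraries lay below both controls for 9 of the 10 genes, ELN and FBLN1 among them. Of all genes tested, 38.7% separated in that direction and 39.0% in the other, so separation by itself was common in these libraries.

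Per exonic length, the order of the members was led by EFEMP1 in both groups. EFEMP1 had 106 and 115 CPM per kb with the PELP1 shRNA and 115 and 111 CPM per kb with the control shRNA. MFAP2 followed with 17.7 ± 1.75 CPM per kb (SD, n = 2) with the PELP1 shRNA and 23.9 ± 0.872 CPM per kb (SD, n = 2) with the control shRNA. FBLN1 and FBN1 came next. Their levels did not differ beyond their spread with the PELP1 shRNA (7.69 ± 0.113 and 7.66 ± 0.0569 CPM per kb, SD, n = 2), while FBN1 was above FBLN1 with the control shRNA (10.7 ± 0.107 and 7.99 ± 0.0726 CPM per kb, SD, n = 2). FBN2 ranked 5 of 10 in both groups. EMILIN1 stood at 0.769 ± 0.0888 CPM per kb (SD, n = 2) with the PELP1 shRNA, below EFEMP2 (2.41 ± 0.0999) and FBLN5 (1.68 ± 0.0451). With the control shRNA it stood at 4.50 ± 0.0625 CPM per kb (SD, n = 2), above EFEMP2 (2.95 ± 0.184) and FBLN5 (2.23 ± 0.125). ELN and MFAP5 were at the low end in both groups, at 0.087 and 0.0314 CPM per kb with the PELP1 shRNA and 0.0994 and 0.281 with the control shRNA. With the longest transcript as the length, in place of all annotated exons, FBN1 ranked 4 and FBLN1 3 in both groups. FBLN1 then stood at 19.3 ± 0.283 and FBN1 at 12.2 ± 0.0908 CPM per kb (SD, n = 2) with the PELP1 shRNA. Their near-equal levels there thus depended on the length used. MFAP2, at 20.3 ± 2.0 CPM per kb (SD, n = 2), did not differ from FBLN1 beyond its spread in those libraries. On that scale EMILIN1 stood below EFEMP2 and FBLN5 in the control shRNA libraries (4.52, 6.99 and 5.01 CPM per kb).

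The 10 genes together had 147 and 158 CPM per kb with the PELP1 shRNA, against 173 and 171 CPM per kb with the control shRNA. Without EFEMP1 the sums were 40.9 and 43.1 CPM per kb with the PELP1 shRNA and 58.2 and 59.7 CPM per kb with the control shRNA. EFEMP1 made up 72.1% and 72.7% of the sum in the PELP1 shRNA libraries and 66.3% and 65.1% in the control shRNA libraries. The shares of EMILIN1 were 0.567% and 0.447% with the PELP1 shRNA and 2.63% and 2.61% with the control shRNA. MFAP2 held 11.2% and 12.0% with the PELP1 shRNA, against 13.5% and 14.3% with the control shRNA. These sums and shares use the length of all annotated exons. They depend on the length used and were not computed with the longest transcript.

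**Figure D4:**
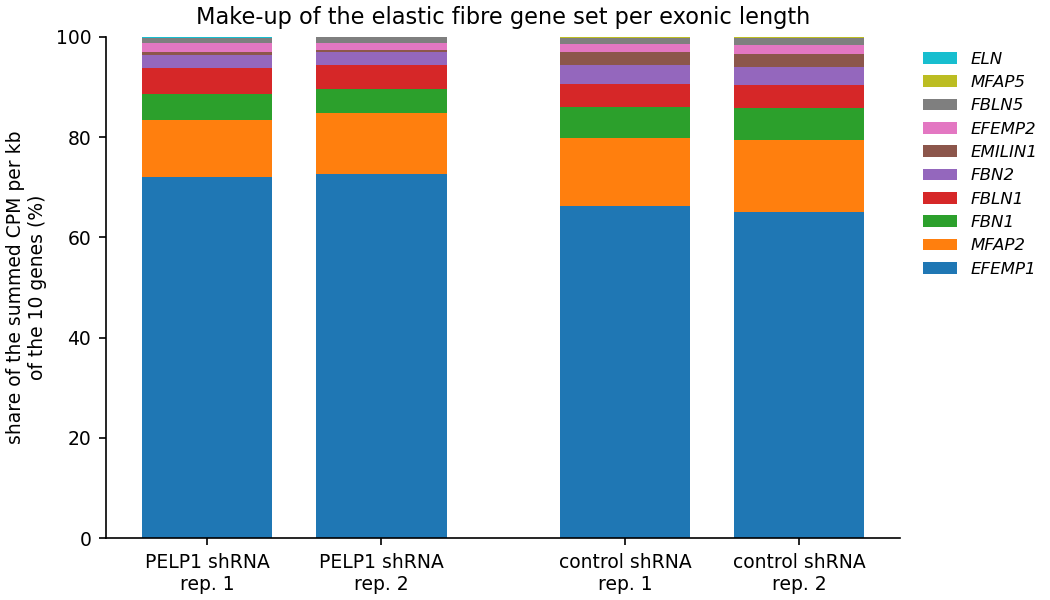
Share of each gene in the summed CPM per kb of exon of the 10 genes, 1 bar per library. EFEMP1 fills 72.1% and 72.7% of the PELP1 shRNA bars, against 66.3% and 65.1% of the control shRNA bars, and the EMILIN1 layer is thin in the PELP1 shRNA bars.

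Among other genes of the elastic fibre pathway, taken as a list of 67 genes in 8 roles, 58 were tested. In the edgeR test 30 of them fell and 16 rose, 12 missed the threshold, and the list's median log2 fold change was −0.18. Over all genes tested, 29.5% were called lower and 28.6% higher, so the share of this list that rose was close to that background. DESeq2 called 29 lower and 12 higher. The 4 genes of the latent TGF-β binding protein family, relatives of the fibrillins, moved in different directions. LTBP3 had 175 and 159 CPM with the PELP1 shRNA, against 58.3 and 65.5 CPM with the control shRNA (log2 fold change 1.43 ± 0.05, SE, edgeR FDR = 7.74e-28). LTBP4, which promotes elastin assembly through fibulin-5, had 53.8 and 51.7 CPM with the PELP1 shRNA, against 80.5 and 93.4 CPM with the control shRNA (log2 fold change −0.72 ± 0.06, SE, edgeR FDR = 2.8e-16). LTBP1 fell as well (−0.51), and LTBP2 did not pass (0.03). Neither LTBP3 nor LTBP4 overlapped between groups.

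Other fibrillin, fibulin and emilin family genes, listed with other genes named MFAP, showed both directions, with 4 higher and 2 lower of 7 tested. The higher genes were FBLN2 and MFAP1, MFAP3 and MFAP3L, which share the MFAP name but not the family of MFAP2 and MFAP5. The lower genes were HMCN1 and EMILIN2. FBLN2, which encodes fibulin-2, rose 1.88-fold to 20.5 and 19.5 CPM with the PELP1 shRNA, against 10.5 and 10.8 CPM with the control shRNA (edgeR FDR = 5.76e-13). HMCN1, which encodes the large matrix protein hemicentin-1, fell to 16.5 and 19.0 CPM with the PELP1 shRNA, against 38.1 and 37.1 CPM with the control shRNA (edgeR FDR = 1.24e-19). FBLN2 thus rose while FBLN5 and EFEMP2 fell and FBLN1 and EFEMP1 missed the threshold.

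The counts by role that follow are to be read against the same shares over all genes (29.5% lower and 28.6% higher). Of 8 genes of cross-linking and secretion, 6 fell and 0 rose, also 0 at an unadjusted p of 0.05 and with DESeq2. LOXL3, a lysyl oxidase-like enzyme, had 16.0 and 15.7 CPM with the PELP1 shRNA, against 99.1 and 104 CPM with the control shRNA (log2 fold change −2.68 ± 0.06, SE, edgeR FDR = 1.45e-44). LOX, the oxidase that cross-links elastin and collagen, fell by 2.54 on the log2 scale. Of 8 tested proteases that degrade elastin or related matrix proteins, 6 fell and 0 rose, again 0 at an unadjusted p of 0.05 and with DESeq2. The cathepsin gene CTSS stood at 16.3 ± 0.45 CPM (SD, n = 2) with the PELP1 shRNA and 42.0 ± 0.294 CPM (SD, n = 2) with the control shRNA. MMP14, a membrane-bound metalloproteinase, stood at 353 ± 2.84 CPM (SD, n = 2) with the PELP1 shRNA and 793 ± 29.9 CPM (SD, n = 2) with the control shRNA.

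ADAMTS and ADAMTS-like genes, several of which regulate microfibril assembly, were higher in 3 and lower in 2 of 7 cases, while DESeq2 called 1 higher and 2 lower. THSD4, which encodes a fibrillin-binding ADAMTS-like protein, rose 1.93-fold to 57.3 ± 0.866 CPM (SD, n = 2) with the PELP1 shRNA, against 29.7 ± 0.867 CPM (SD, n = 2) with the control shRNA. ADAMTS6 stood at 11.7 CPM with the PELP1 shRNA and 23.5 CPM with the control shRNA. Of 10 tested integrin and elastin receptor genes, 4 rose and 5 fell. ITGB8 and ITGB5, β subunits of integrins that bind the TGF-β latency complex or fibulin-5, rose 1.89-fold and 1.65-fold. Of 7 growth factor genes, 2 rose and 3 fell, with BMP4 at −1.31 and GDF5 at −1.59 on the log2 scale. TGFB2 was among the 2 that rose, at 0.99. Of 7 matrix partners of microfibrils, 2 rose and 4 fell (1 and 4 with DESeq2), with the proteoglycan genes BGN at −3.60 and VCAN at −1.05. The fibronectin gene FN1 was among the 2 that rose, at 0.51. FDR values of the genes named with a value in these 2 paragraphs on roles were at most 2.87e-15 in the edgeR test.

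**Figure D5:**
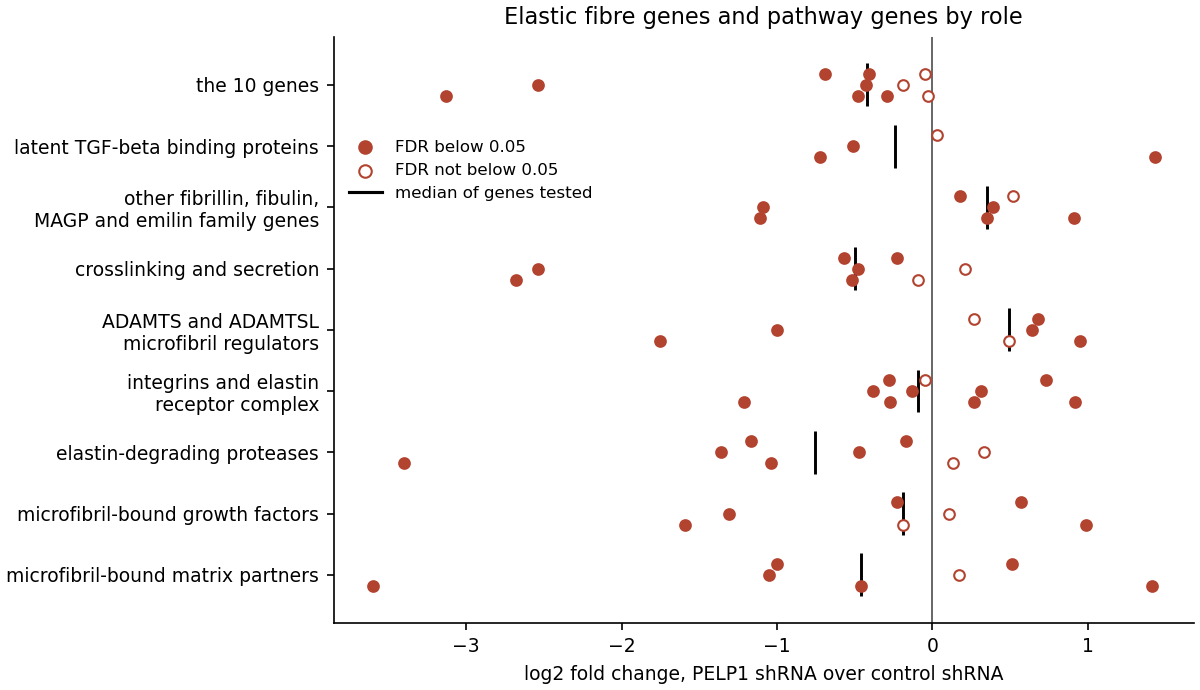
Log2 fold change, PELP1 shRNA over control shRNA, of the 10 genes (top row) and of 58 other pathway genes by role; each point is a gene, filled where FDR was below 0.05, and the black line is the row's median. All filled points lie left of 0 in the top row (7), the cross-linking row (6) and the protease row (6), while each other row holds filled points on both sides.

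PELP1 itself had 55.6 and 49.7 CPM in the PELP1 shRNA libraries, against 168 and 185 CPM in the control shRNA libraries, 29.8% of control. Libraries held 24052542 to 29221640 counts in genes, and replicates differed by more than counting noise (chi-square per degree of freedom 2.374 and 2.469, against 56.13 to 61.96 between groups). Neural markers were present (8 of 10 above 1 CPM), with the granule lineage genes ATOH1 and NEUROD1 at 0 to 6 counts. The 10 summed to 184 and 187 CPM with the PELP1 shRNA and 239 and 257 CPM with the control shRNA. TUBB3 alone set that difference, and without it the sums were 106 and 109 CPM with the PELP1 shRNA and 93.4 and 92.6 CPM with the control shRNA. ZIC2, EN2 and PAX6 were called higher, and TUBB3 and SOX2 lower. The summed level of 7 fibroblast markers, a cell type that makes elastic fibres, was 220 and 215 CPM with the PELP1 shRNA and 420 and 441 CPM with the control shRNA, of which THY1 made up most; 5 of the 7 fell, and DCN and LUM rose. The summed level of 5 smooth muscle markers was 121 and 114 CPM with the PELP1 shRNA and 120 and 127 CPM with the control shRNA, nearly all of it TAGLN. ACTA2 was called lower (log2 fold change −0.88) and CNN1 higher (0.66). The markers DES and MYH11 of this list had at most 9 counts in a library. Endothelial markers summed to 5.96 and 5.59 CPM with the PELP1 shRNA and 3.93 and 3.03 CPM with the control shRNA, with PECAM1 and VWF called higher and CDH5 lower. Leukocyte markers summed to 60.8 to 64.1 CPM in the 4 libraries, mostly CD68, with PTPRC at 5 to 9 counts. All libraries came from Daoy cultures, and these marker levels do not show that other cell types were present. The part of the marker genes in the changes of the elastic fibre genes was not tested. In bulk RNA, fewer cells expressing a gene and less RNA per cell cannot be told apart.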

How the data were processed

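Total RNA of 2 PELP1 shRNA and 2 control shRNA samples of Daoy cells was sequenced as 50 bp single-end reads after TruSeq total RNA preparation, per the labels' protocols. The deposited values are raw read counts per gene symbol; the submitters' processing notes name TopHat2 2.0.8b, the build hg19 and HTSeq. Alignments that were not unique made up 29.38% to 30.82% of each file, and the 5 rows naming no gene were left out. Counts were tested with edgeR 4.0.16 (quasi-likelihood F test, robust, TMM, filterByExpr) in R 4.3.3, with Benjamini-Hochberg adjustment over all genes; SE is the log2 fold change over the root of F. The test was checked on simulated data in which few genes were changed. In these data 58.1% of genes were called, so that check does not cover error rates here. Exonic lengths, coordinates and overlaps come from GENCODE v44lift37 (GRCh37). Named were all 10 members, PELP1 and, per role, up to 2 called pathway genes with the largest change and a mean of at least 5 CPM; other names were chosen after their values were seen. Of 69 pathway entries, 67 had a row of their own, 3 by another symbol. CTSL and CTSV were counted under older symbols, and ADAMTSL6 under THSD4. Alternatives were other scalings and filters, DESeq2 1.42.0, a replicate block, leaving out each library, and an assumed biological variation of 10% or 20%. Members and lists were chosen with earlier results of these data known.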

Additional observations from a re-analysis of the deposited data

How the results depend on the processing

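Across 13 alternatives, the count of lower members was 6 or 7 and that of higher members 0, except that an assumed biological variation of 20% left 2 lower members, EMILIN1 and MFAP5. There FBN1 (adjusted p = 0.421), FBN2 (0.145), MFAP2 (0.508) and FBLN5 (0.576) missed the threshold, since that setting replaces the estimated variation of 2.99%. EFEMP2 missed it at 10% (adjusted p = 0.168) and 20% (0.739). Changes near 0 turned positive, none past the threshold, for EFEMP1 under library size alone (0.057) and upper-quartile factors (0.02). FBLN1 turned positive under library size alone (0.035). The median log2 fold change over all genes tested also moved, from 0.00222 to 0.0922 with library size alone and 0.0553 with upper-quartile factors. The cause of the sign changes was not tested. Leaving out 1 library gave −0.095 to 0.027 for EFEMP1, positive without PELP1 shRNA replicate 1. EMILIN1 ranged from −2.67 to −2.44 and MFAP5 from −3.41 to −2.88. With the filter of 5 CPM, ELN and MFAP5 were not tested.

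Leaving out 1 library gave 6 to 7 lower members and 0 higher, 15 to 16 higher and 28 to 30 lower pathway genes, and 7420 to 7757 called genes overall. Higher pathway genes numbered 10 at 10% variation and 6 at 20%, where 15 pathway genes were lower. All called genes numbered 4363 at 10% (2187 higher, 2176 lower) and 1325 at 20% (685 higher, 640 lower). Replicate numbers did not pair the libraries (correlation of deviations 0.0109); with the replicate block, 7 members were lower, 0 higher, and 8161 genes were called. Levels per kb rose with the longest transcript as the length, by construction, in 18 of 20 cases by more than the spread between replicates. Depth limits ELN and MFAP5, with at most 17 and 31 counts in a library.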
